A study of Homo sapiens with 8 samples.

Results

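The subject here is a set of 60 genes of mitosis, the spindle checkpoint and the kinetochore, taken by gene name from a table of 19411 genes and followed across 4 groups of HCT116 libraries. All 60 were found, and 59 were among the 11585 genes that reached 0.5 RPKM (reads per kilobase of gene, scaled to library size) in at least 2 of the 8 libraries and were tested. HCT116 is a human colorectal carcinoma cell line. All groups were CRISPR interference (CRISPRi) cells, where a guide RNA brings a dead Cas9 fused to a repressor to the start of a gene and lowers its transcription, and no treatment is listed. The groups, of 2 libraries each, were circPRE8 sgNORAD, circPRE2 sgNORAD, parental sgNORAD and parental sgControl: cells named circPRE8 or circPRE2, or the parental CRISPRi cells, with a guide against the long noncoding RNA NORAD, and the parental cells with a control guide. The labels do not say what circPRE2 and circPRE8 are, or whether a line is a single clone, and the names are used only as names. The title of the series ties NORAD to PUMILIO proteins, phase separation and genome maintenance. The level of NORAD was not analysed here, so its knockdown was not checked.

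At mitosis, cyclin B and its kinase CDK1 drive entry into division, the kinetochore built on centromeric chromatin holds each chromosome to spindle microtubules, and the spindle checkpoint holds back the anaphase-promoting complex and its activator CDC20 until every kinetochore is attached. Kinesins move and shorten microtubules, and Aurora and Polo-like kinases correct attachments and start cytokinesis. In dividing cells the messenger RNAs of these proteins peak together before mitosis. Many of their promoters hold a CHR element, bound by the MuvB proteins of the DREAM complex, and CCAAT boxes, bound by NF-Y. PUMILIO proteins bind a short motif in 3′ UTRs, where they repress messenger RNAs, and NORAD carries many copies of that motif.

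The deposited RPKM values were scaled to library sizes that came to about 28400000 to 50300000 reads, the lowest being that of parental sgNORAD replicate 1. That library also had the lowest share of reads in 4 mitochondrially encoded genes, 0.508%, against 0.849% to 1.17% in the other 7, and its part in the results was not tested beyond leaving it out. A single read in 1 kb of exon was worth 0.0199 to 0.0352 RPKM. The 60 genes made up between 0.622% and 0.765% of the summed RPKM of a library. EPCAM, CDH1, CDX2, KRT8, KRT18 and KRT19, markers of colon epithelium, were present in all 8 libraries, with CDX2 between 4.05 and 4.64 RPKM. KRT20, another such marker, was low, between 0.205 and 0.781 RPKM. VIL1 and LGR5 did not pass 0.0233 RPKM in any library and CDX1 was listed at 0 in all of them. Nothing in the labels says that the 2 libraries of a group came from separate cultures, so the p-values below measure the spread between these libraries, which may be technical.

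Levels per gene length spanned a wide range. CDC20, the activator of the anaphase-promoting complex that the checkpoint inhibits, was the highest member in every group, with means of 149.7 RPKM in circPRE8 sgNORAD, 131 RPKM in circPRE2 sgNORAD, 146 RPKM in parental sgNORAD and 159 RPKM in parental sgControl. The median of the members' group means was 19.3, 18.6, 18.6 and 22.4 RPKM in the same order of groups. MAD1L1, which recruits MAD2 to unattached kinetochores, was the lowest, at 0.0242 to 0.0777 RPKM (8 to 26 reads a library), and it was not tested. PRC1, a microtubule bundler of the central spindle, was the next lowest, at 0.517 to 0.734 RPKM. On the GENCODE 29 annotation 57.6% of the exon bases of PRC1 are overlapped on the same strand by another gene, AC068831.7, whereas MAD1L1 has no such overlap. Reads shared with overlapping genes may be missing or misplaced, and the part of this in the low values was not tested.

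**Figure D1:**
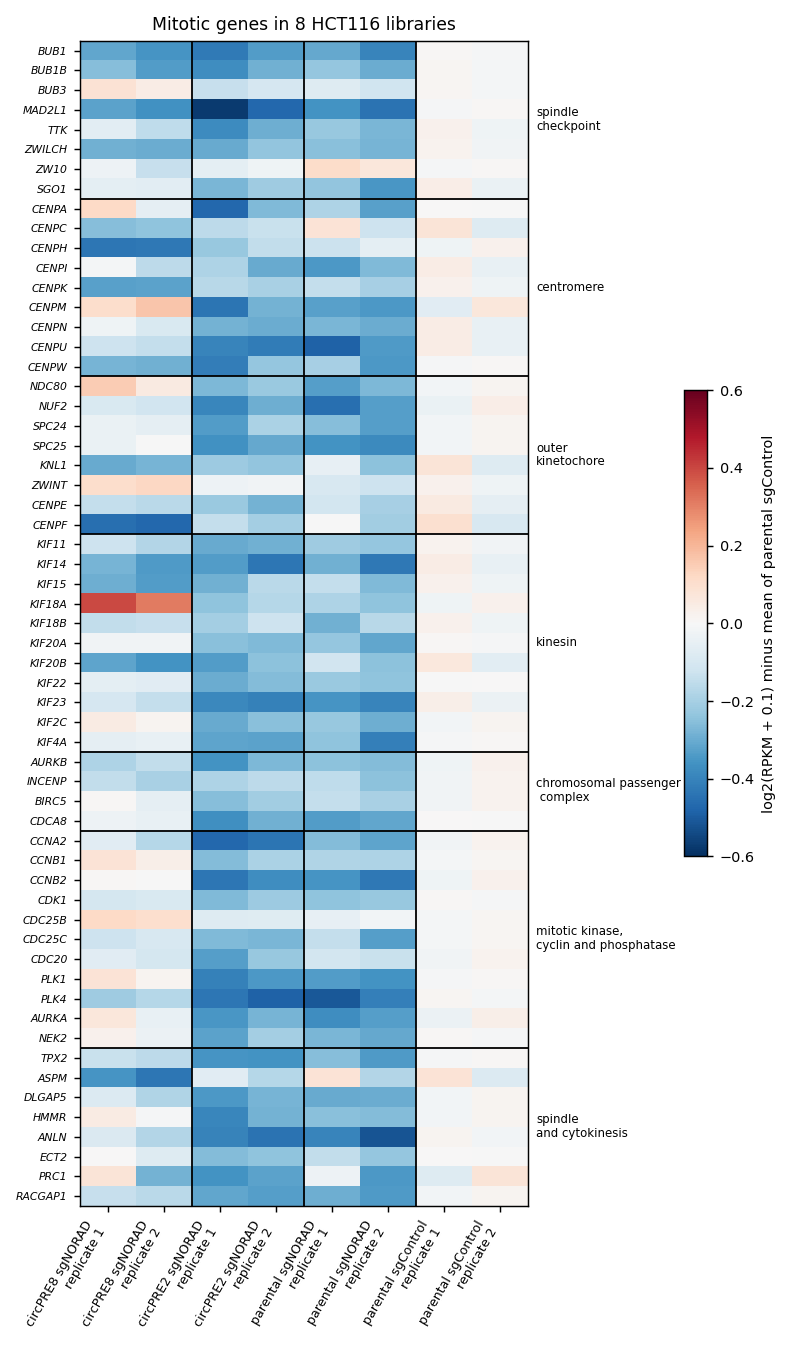
Each row is 1 of the 59 members tested, ordered by role, and each column 1 library, from circPRE8 sgNORAD at the left to parental sgControl at the right; colour gives log2(RPKM + 0.1) minus the mean of the parental sgControl libraries. Most rows are blue in circPRE2 sgNORAD and parental sgNORAD and nearer white in circPRE8 sgNORAD, where KIF18A is red and CENPH, CENPF and ASPM are among the darker blue rows.

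The first comparison asks what the NORAD guide did in parental cells. Mitotic messenger RNAs fell together: 51 of the 59 members were lower in parental sgNORAD than in parental sgControl, none rose and 8 were not called. Among all genes tested 37.3% were called, 20.9% higher and 16.4% lower (2425 and 1901 genes; with RLE size factors, 2156 and 2277). The changes were modest, with a median log2 change of -0.26 (a ratio of 0.836) over the members, against 0.02 over all genes tested. For 53 members both parental sgNORAD libraries lay below both parental sgControl libraries, a pattern seen in 30% of all genes, and for 1 member they lay above, as in 37.4% of all genes. A call means a Benjamini-Hochberg adjusted p under 0.05 in limma, fitted to log2(RPKM + 0.1) of all genes. In bulk RNA, fewer cells in mitosis and less of these RNAs per cell cannot be told apart. Of 7 colon epithelial markers tested in the same comparison, 2 fell (KRT8 and KRT18) and none rose, and their summed level was 967 to 1001 RPKM in parental sgNORAD and 1024 to 1081 RPKM in parental sgControl. Of 6 fibroblast markers 2 were tested and COL1A1 rose, and their sum was 4.19 to 4.24 RPKM in parental sgNORAD and 3.28 to 3.46 RPKM in parental sgControl. Sums of 6 blood cell markers (0.131 to 0.191 RPKM in parental sgNORAD, 0.115 to 0.298 RPKM in parental sgControl) and of 6 kidney and neural line markers (1.64 to 1.79 and 1.68 to 1.76 RPKM in the same order) overlapped. The part of these markers in the result was not tested.

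Spindle checkpoint genes fell in 7 of 8 cases tested, with a median log2 change of -0.26. MAD2L1, the checkpoint protein that binds and inhibits CDC20, had 23.7 and 22.4 RPKM in parental sgNORAD and 30.3 and 30.6 RPKM in parental sgControl. Its log2 change was -0.40 ± 0.045 (SE; limma, Benjamini-Hochberg adjusted p = 5.4e-05). BUB1, the kinase that brings checkpoint proteins to KNL1, had 24.5 and 23.1 RPKM in parental sgNORAD and 30.6 and 30.2 RPKM in parental sgControl, a log2 change of -0.35 ± 0.044 (SE; limma, adjusted p = 0.00011). For both genes the groups did not overlap, which is likely for members picked for the largest called changes of their role. BUB1B, TTK (the kinase MPS1), ZWILCH and SGO1, the protector of centromeric cohesion, changed by between -0.29 and -0.25, and BUB3 by -0.10. ZW10, which with ZWILCH forms the RZZ complex, went uncalled: it had 14.9 and 14.5 RPKM in parental sgNORAD and 13.8 and 13.9 RPKM in parental sgControl, the only member with both libraries above both controls.

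Of the 9 centromere proteins, 7 fell. CENPU, a subunit of the constitutive centromere network and a docking site for PLK1, had 6.55 and 7.25 RPKM in parental sgNORAD and 9.51 and 8.92 RPKM in parental sgControl, a log2 change of -0.41 ± 0.056 (SE; limma, adjusted p = 0.00020). CENPM, another subunit of that network, had 12.8 and 12.6 RPKM in parental sgNORAD and 15.3 and 16.8 RPKM in parental sgControl (log2 change -0.34 ± 0.058, SE; limma, adjusted p = 0.0010). Neither pair of groups overlapped. CENPA, the centromeric histone, fell with a log2 change of -0.26, and CENPI, CENPK, CENPN and CENPW ranged from -0.30 to -0.17. CENPC, which links CENPA chromatin to the outer kinetochore, had 3.196 and 2.76 RPKM in parental sgNORAD and 3.19 and 2.84 RPKM in parental sgControl and was not called. CENPH, also uncalled, had 8.15 and 8.54 RPKM in parental sgNORAD and 8.75 and 9.07 RPKM in parental sgControl.

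Outer kinetochore genes were lower in 6 of 8 cases. NUF2 and SPC25 are subunits of the NDC80 complex, which grips the microtubule. NUF2 had 10.99 and 12.0 RPKM in parental sgNORAD and 14.7 and 15.5 RPKM in parental sgControl (log2 change -0.39 ± 0.053, SE; limma, adjusted p = 0.00019). SPC25 had 17.1 and 16.8 RPKM in parental sgNORAD and 21.7 and 22.2 RPKM in parental sgControl (log2 change -0.37 ± 0.039, SE; limma, adjusted p = 3.2e-05). The libraries of the guides were separate for both. The other subunits of that complex moved by similar amounts, NDC80 by -0.30 and SPC24 by -0.29, while ZWINT, a KNL1 partner, changed by -0.11 and the kinesin CENPE by -0.15. The scaffold KNL1 had 8.75 and 7.62 RPKM in parental sgNORAD and 9.55 and 8.56 RPKM in parental sgControl, and CENPF, a dynein-binding protein of the kinetochore corona, had 25.9 and 22.3 RPKM in parental sgNORAD and 27.6 and 24.2 RPKM in parental sgControl. These groups overlapped and neither gene was called, but without parental sgNORAD replicate 1 both were (log2 changes of -0.24 and -0.21).

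All 11 mitotic kinesins and all 4 members of the chromosomal passenger complex fell. KIF23, a central spindle kinesin needed for cytokinesis, had 19.5 and 19.0 RPKM in parental sgNORAD and 25.6 and 24.4 RPKM in parental sgControl (log2 change -0.38 ± 0.040, SE; limma, adjusted p = 3.4e-05). KIF14, also a cytokinesis kinesin, had 10.44 and 9.47 RPKM in parental sgNORAD and 13.2 and 12.4 RPKM in parental sgControl (log2 change -0.36 ± 0.058, SE; limma, adjusted p = 0.00066). The groups did not overlap. The other 9 kinesins, among them the spindle pole separator KIF11 and the microtubule depolymerase KIF2C, changed by between -0.33 and -0.18. In the passenger complex, which senses tension at kinetochores, CDCA8 (Borealin) had 30.6 and 31.1 RPKM in parental sgNORAD and 38.7 and 38.5 RPKM in parental sgControl (log2 change -0.32 ± 0.037, SE; limma, adjusted p = 6.2e-05). Its kinase AURKB had 35.3 and 34.9 RPKM in parental sgNORAD and 41.1 and 42.6 RPKM in parental sgControl (log2 change -0.25). INCENP and BIRC5 (Survivin), which complete the complex, changed by -0.20 and -0.17.

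Among mitotic kinases, cyclins and phosphatases 10 of 11 fell. PLK4, the kinase that starts centriole duplication, changed most of all members: it had 9.97 and 10.7 RPKM in parental sgNORAD and 14.4 and 14.1 RPKM in parental sgControl (log2 change -0.46 ± 0.047, SE; limma, adjusted p = 2.6e-05). CCNB2, cyclin B2, had 28.5 and 27.0 RPKM in parental sgNORAD and 35.8 and 37.1 RPKM in parental sgControl (log2 change -0.39 ± 0.040, SE; limma, adjusted p = 2.9e-05). No library of one guide reached the range of the other. AURKA and PLK1 both changed by -0.35, CCNA2 and NEK2 by -0.29, CDK1 by -0.23, CCNB1 by -0.18 and CDC20 by -0.12. Of the phosphatases that switch CDK1 on, CDC25C changed by -0.24, whereas CDC25B was not called, with 70.5 and 72.3 RPKM in parental sgNORAD and 72.4 and 73.6 RPKM in parental sgControl.

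Genes of the spindle and of cytokinesis fell in 6 of 8 cases. ANLN (anillin), a scaffold of the contractile ring, had 44.2 and 40.6 RPKM in parental sgNORAD and 58.9 and 57.7 RPKM in parental sgControl (log2 change -0.46 ± 0.046, SE; limma, adjusted p = 2.5e-05). RACGAP1, the partner of KIF23 in centralspindlin, had 32.8 and 31.7 RPKM in parental sgNORAD and 39.7 and 40.6 RPKM in parental sgControl (log2 change -0.32 ± 0.036, SE; limma, adjusted p = 5.3e-05). Both were lower in each parental sgNORAD library than in either control. TPX2, the activator of AURKA, and DLGAP5 changed by -0.30, HMMR by -0.26 and ECT2, the exchange factor that RACGAP1 recruits, by -0.19. ASPM, a spindle pole protein, had 11.3 and 9.42 RPKM in parental sgNORAD and 11.3 and 10.1 RPKM in parental sgControl, and PRC1 had 0.676 and 0.523 RPKM in parental sgNORAD and 0.651 and 0.734 RPKM in parental sgControl. Both overlapped between guides and were not called.

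**Figure D2:**
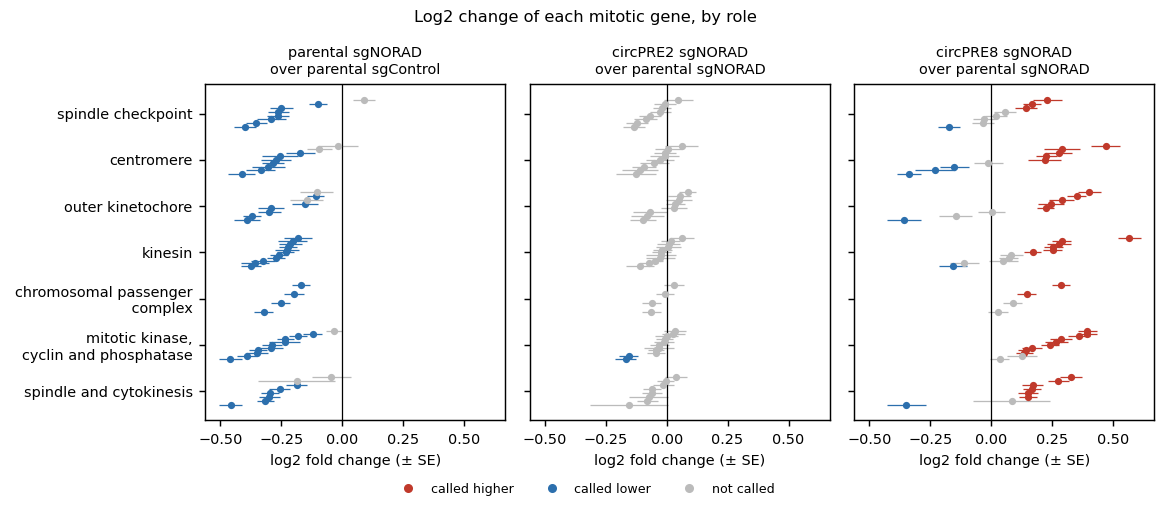
Log2 fold changes with their standard errors are shown for each member, by role, for parental sgNORAD over parental sgControl, circPRE2 sgNORAD over parental sgNORAD, and circPRE8 sgNORAD over parental sgNORAD; colour marks calls at an adjusted p under 0.05. The points lie mostly left of 0 in the first panel (51 lower), around 0 in the second (2 lower) and mostly right of 0 in the third (36 higher, 7 lower).

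With the NORAD guide in both groups, circPRE2 and parental cells had close levels of mitotic genes. No member was higher in circPRE2 sgNORAD than in parental sgNORAD and 2 were lower, where 18.8% of all genes tested were called, 10.9% higher and 7.91% lower. The median log2 change was -0.03 over the members and 0.01 over all genes. For 56 of 59 members the 95% interval of the change lay within 1.2-fold in either direction. Both circPRE2 sgNORAD libraries lay below both parental sgNORAD libraries for 18 members (28.2% of all genes) and above for 2 (31.9% of all genes). CCNA2, cyclin A2, had 41.7 and 42.7 RPKM in circPRE2 sgNORAD and 48.4 and 46.5 RPKM in parental sgNORAD (log2 change -0.17 ± 0.042, SE; limma, adjusted p = 0.018). CDC20 had 126.5 and 136 RPKM in circPRE2 sgNORAD and 147 and 145 RPKM in parental sgNORAD (log2 change -0.16, limma, adjusted p = 0.019). These groups did not overlap, but no member was called without parental sgNORAD replicate 1 or without circPRE2 sgNORAD replicate 1, and 1 was without circPRE2 sgNORAD replicate 2. The share of all genes called fell as well, to 12.4% without parental sgNORAD replicate 1, 6.2% without circPRE2 sgNORAD replicate 1 and 10.6% without circPRE2 sgNORAD replicate 2. Of the markers of cell types, EPCAM was lower and PAX2 higher in circPRE2 sgNORAD than in parental sgNORAD (log2 changes of -0.28 and 0.60), and their part was not tested.

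Cells of circPRE8 had higher levels of most mitotic genes than parental cells with the same guide. In circPRE8 sgNORAD 36 members were higher than in parental sgNORAD, 7 were lower and 16 were not called, where 52.2% of all genes were called, 23.6% higher and 28.6% lower (2738 and 3315 genes; with RLE size factors, 3140 and 3031). The median log2 change was 0.17 over the members and -0.02 over all genes. Both circPRE8 sgNORAD libraries lay above both parental sgNORAD libraries for 41 members (34.5% of all genes) and below for 10 (41.1% of all genes). The count of 7 lower members became 4 without parental sgNORAD replicate 1, 4 without circPRE8 sgNORAD replicate 1 and 3 without circPRE8 sgNORAD replicate 2. This comparison and the first share the parental sgNORAD libraries, so their opposite directions are not independent of each other.

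By role, mitotic kinases, cyclins and phosphatases rose in circPRE8 sgNORAD in 9 of 11 cases with none lower (median log2 change 0.24). Outer kinetochore genes rose in 5 of 8 cases and 1 fell, centromere genes rose in 5 of 9 and 3 fell, and kinesins rose in 6 of 11 and 1 fell. Spindle and cytokinesis genes rose in 6 of 8 cases and 1 fell, passenger complex genes rose in 2 of 4, and spindle checkpoint genes rose in 3 of 8 and 1 fell. The checkpoint genes had the smallest median, 0.04: TTK, SGO1 and BUB3 rose, with log2 changes of 0.14, 0.23 and 0.17, while BUB1, BUB1B, MAD2L1 and ZWILCH ranged from -0.03 to 0.06 and were not called. These differences between roles were not tested.

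KIF18A, a kinesin that dampens chromosome movements at the plus ends of kinetochore microtubules, rose most, with 17.9 and 16.9 RPKM in circPRE8 sgNORAD, 11.5 and 12.1 RPKM in circPRE2 sgNORAD, 12.0 and 11.5 RPKM in parental sgNORAD, and 13.3 and 13.9 RPKM in parental sgControl. It lies on chromosome 11 (hg38 chr11:28020620-28108308, minus strand). Its log2 change over parental sgNORAD was 0.57 ± 0.047 (SE; limma, adjusted p = 2.3e-06), a ratio of 1.48, and both circPRE8 sgNORAD libraries stood above the other 6. CENPM had 17.2 and 17.95 RPKM in circPRE8 sgNORAD, against the parental sgNORAD values given above (log2 change 0.47 ± 0.058, SE; limma, adjusted p = 4.8e-05). NDC80, the head of its complex, had 15.4 and 14.3 RPKM in circPRE8 sgNORAD and 10.96 and 11.4 RPKM in parental sgNORAD (log2 change 0.40 ± 0.047, SE; limma, adjusted p = 2.8e-05). Neither of these overlapped between the lines. PLK1 and CCNB2 both had a log2 change of 0.39.

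By contrast, 7 members were lower in circPRE8 sgNORAD than in parental sgNORAD: CENPF, ASPM, CENPH, CENPC, ZW10, KIF20B and CENPK. CENPF had 18.9 and 18.6 RPKM in circPRE8 sgNORAD and 25.9 and 22.3 RPKM in parental sgNORAD (log2 change -0.36 ± 0.069, SE; limma, adjusted p = 0.0011). ASPM had 8.31 and 7.86 RPKM in circPRE8 sgNORAD and 11.3 and 9.42 RPKM in parental sgNORAD (log2 change -0.35 ± 0.080, SE; limma, adjusted p = 0.0034). In both genes the circPRE8 sgNORAD libraries were alike and the parental sgNORAD libraries were apart, without overlap between the lines. CENPH had 6.56 and 6.60 RPKM in circPRE8 sgNORAD and 8.15 and 8.54 RPKM in parental sgNORAD (log2 change -0.34 ± 0.050, SE; limma, adjusted p = 0.00017). The other 4 ranged from -0.23 to -0.15. CENPH stands next to CCNB1 on chromosome 5, on the same strand and 11.3 kb downstream (hg38 chr5:69189548-69210357 and chr5:69167010-69178245). The neighbours went opposite ways, CCNB1 having 116 and 113 RPKM in circPRE8 sgNORAD and 97.2 and 96.7 RPKM in parental sgNORAD (log2 change 0.24).

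**Figure D3:**
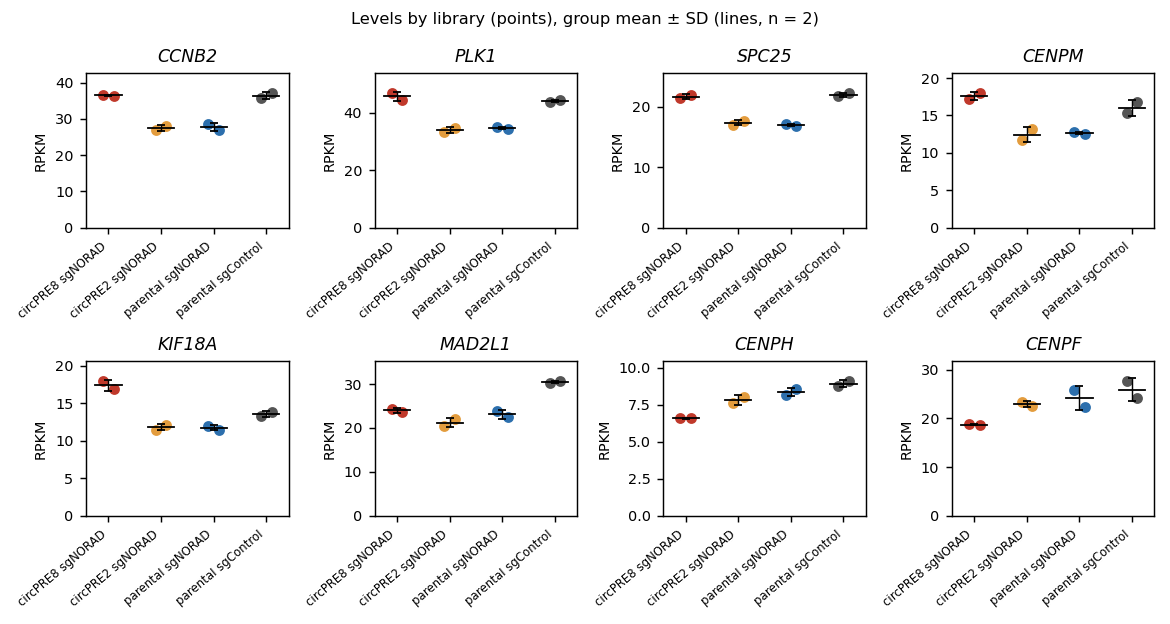
RPKM by library (points) with the group mean and SD (lines, n = 2) for 8 members, with groups from circPRE8 sgNORAD at the left to parental sgControl at the right and axes from 0. In CCNB2, PLK1, SPC25 and CENPM the circPRE8 sgNORAD points stand near those of parental sgControl and the other groups are lower, KIF18A is highest and CENPH and CENPF lowest in circPRE8 sgNORAD, and MAD2L1 stays below parental sgControl in all 3 groups with the NORAD guide.

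Other features of the libraries moved between these lines too. Of 7 colon epithelial markers tested, 4 keratins were higher in circPRE8 sgNORAD than in parental sgNORAD. CDH1 and EPCAM were lower, with log2 changes of -0.87 and -0.61. KRT20, 1 of the 4 keratins, had 0.776 and 0.781 RPKM in circPRE8 sgNORAD and 0.305 and 0.249 RPKM in parental sgNORAD. It passed the filter of 0.5 RPKM through circPRE8 sgNORAD alone, so its call is not independent of the filter. The summed level of the 10 listed markers was 1226 to 1253 RPKM in circPRE8 sgNORAD and 967 to 1001 RPKM in parental sgNORAD. Summed blood cell markers were at 0.360 to 0.418 RPKM in circPRE8 sgNORAD and 0.131 to 0.191 RPKM in parental sgNORAD. Fibroblast markers summed to 3.91 to 6.21 RPKM in circPRE8 sgNORAD and 4.19 to 4.24 RPKM in parental sgNORAD, and kidney and neural line markers to 2.86 to 3.003 RPKM in circPRE8 sgNORAD and 1.64 to 1.79 RPKM in parental sgNORAD, with PAX2 higher. Their part in the mitotic changes was not tested.

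Against circPRE2 sgNORAD, which has the same guide, circPRE8 sgNORAD had 39 members higher and 3 lower, where 43.6% of all genes were called, 18% higher and 25.7% lower. With RLE size factors the split over all genes turned to 2680 higher and 2498 lower, against 2081 higher and 2975 lower with the deposited scaling, and the members stood at 42 higher and 3 lower. The median log2 change was 0.19 over the members and -0.04 over all genes. Both circPRE8 sgNORAD libraries lay above both circPRE2 sgNORAD libraries for 43 members (31.2% of all genes) and below for 7 (44.3% of all genes). KIF18A (log2 change 0.56), CENPM (0.50) and PLK1 (0.42) rose most. PLK1, the Polo-like kinase of mitotic entry and attachment, had 46.8 and 44.6 RPKM in circPRE8 sgNORAD and 33.3 and 34.7 RPKM in circPRE2 sgNORAD (limma, Benjamini-Hochberg adjusted p = 7.4e-06), and the groups did not overlap. Of the 3 that fell, CENPF had 23.4 and 22.4 RPKM in circPRE2 sgNORAD, ASPM 10.2 and 9.46 RPKM, and CENPH 7.58 and 8.04 RPKM, with log2 changes of -0.29, -0.28 and -0.24. The call for ASPM was lost without circPRE2 sgNORAD replicate 1 and without circPRE8 sgNORAD replicate 2, and the share of all genes called was 27.4% without circPRE2 sgNORAD replicate 1. Among the markers, 4 keratins, COL3A1 and PAX2 were higher in circPRE8 sgNORAD than in circPRE2 sgNORAD. CDH1 (log2 change -0.75), EPCAM (-0.34) and COL1A1 (-0.31) were lower. KRT20, 1 of the keratins, passed the filter through circPRE8 sgNORAD alone and had 0.492 and 0.205 RPKM in circPRE2 sgNORAD. Colon markers summed to 1226 to 1253 RPKM in circPRE8 sgNORAD and 990 to 1007 RPKM in circPRE2 sgNORAD, and the part of the markers was not tested.

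The circPRE lines were also set against the control guide. In circPRE2 sgNORAD no member was higher than in parental sgControl and 52 were lower, where 43% of all genes were called, 25.2% higher and 17.8% lower (2421 higher and 2671 lower with RLE size factors, 2914 higher and 2062 lower with the deposited scaling). The median log2 change was -0.28 over the members and 0.03 over all genes, and 57 members had both circPRE2 sgNORAD libraries below both controls (31.7% of all genes), none above (42.9% of all genes). The largest changes were in MAD2L1, PLK4 and CCNA2, at -0.52, -0.46 and -0.46. MAD2L1 had 20.4 and 21.97 RPKM in circPRE2 sgNORAD and 30.3 and 30.6 RPKM in parental sgControl, and CCNA2 had 41.7 and 42.7 RPKM in circPRE2 sgNORAD and 57.1 and 58.8 RPKM in parental sgControl. PLK4 had 10.5 and 10.1 RPKM in circPRE2 sgNORAD and 14.4 and 14.1 RPKM in parental sgControl. The groups did not overlap in any of the 3. Without circPRE2 sgNORAD replicate 1, 28% of all genes were called. Among the markers, EPCAM, CDH1, KRT8 and KRT18 were lower in circPRE2 sgNORAD than in parental sgControl (log2 changes from -0.27 to -0.11), and COL1A1 (0.64) and PAX2 (0.57) were higher. Fibroblast markers summed to 4.72 to 4.90 RPKM in circPRE2 sgNORAD and 3.28 to 3.46 RPKM in parental sgControl, and kidney and neural line markers to 2.53 to 2.63 RPKM in circPRE2 sgNORAD and 1.68 to 1.76 RPKM in parental sgControl; the part of these markers was not tested.

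In circPRE8 sgNORAD 3 members were higher than in parental sgControl, 27 were lower and 29 were not called, where 40.5% of all genes were called, 20% higher and 20.5% lower. The median log2 change was -0.10 over the members and 0.00 over all genes, and both circPRE8 sgNORAD libraries lay below both controls for 39 members (36.5% of all genes) and above for 8 (35.8% of all genes). For 41 of 59 members the 95% interval lay within 1.2-fold. CCNB2 had 36.6 and 36.4 RPKM in circPRE8 sgNORAD and 35.8 and 37.1 RPKM in parental sgControl, a log2 change of 0.00 with a 95% interval of -0.09 to 0.09. KIF18A was higher (0.35 ± 0.047, SE; limma, adjusted p = 0.00015), as were ZWINT, with 38.8 and 39.2 RPKM in circPRE8 sgNORAD and 36.6 and 35.5 RPKM in parental sgControl, and CDC25B, with 79.4 and 78.3 RPKM in circPRE8 sgNORAD and 72.4 and 73.6 RPKM in parental sgControl (log2 change 0.11 each). CENPF, CENPH and ASPM were lowest, at -0.46, -0.43 and -0.39. The 30 calls became 16 without circPRE8 sgNORAD replicate 2, where 25.7% of all genes were called, and 19 without parental sgControl replicate 1, and of the 3 higher members KIF18A alone was called when either circPRE8 sgNORAD replicate was left out. Among the markers, 4 keratins, COL1A1, COL3A1 and PAX2 were higher in circPRE8 sgNORAD than in parental sgControl. CDH1 (log2 change -0.99) and EPCAM (-0.61) were lower. KRT20, 1 of the keratins, passed the filter through circPRE8 sgNORAD alone and had 0.242 and 0.278 RPKM in parental sgControl. Colon markers summed to 1226 to 1253 RPKM in circPRE8 sgNORAD and 1024 to 1081 RPKM in parental sgControl, fibroblast markers to 3.91 to 6.21 RPKM in circPRE8 sgNORAD and 3.28 to 3.46 RPKM in parental sgControl, and kidney and neural line markers to 2.86 to 3.003 RPKM in circPRE8 sgNORAD and 1.68 to 1.76 RPKM in parental sgControl. Their part was not tested.

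Gene length moved with the change in circPRE8 sgNORAD. Of 29 members with under 4000 bases of merged exons, 23 were higher than in parental sgNORAD and 2 lower (median log2 change 0.24). Of 24 with 4000 bases or more but under 8000, 12 were higher and 2 lower (median 0.11). Of the 6 with 8000 bases or more, BUB3, CENPC, KNL1, CENPE, CENPF and ASPM, 1 was higher and 3 were lower (median -0.19). Of all genes tested in the same classes 32.2%, 22% and 12.4% were higher and 20.4%, 28.7% and 42.4% lower, with medians of 0.04, -0.03 and -0.12, so the split of the 6 longest members (16.7% higher, 50% lower) lay near that of all long genes. In parental sgNORAD against parental sgControl, 27 of 29, 22 of 24 and 2 of 6 members of these classes were lower and none higher. Of all genes 19.25%, 16.5% and 11.3% were lower and 19.9%, 21% and 22.6% higher. In circPRE8 sgNORAD against parental sgControl, 7 of 29, 15 of 24 and 5 of 6 members were lower and 1, 2 and 0 higher. Of all genes 13.3%, 21.1% and 31.3% were lower and 26.5%, 19% and 11.2% higher. The longest members also differed between replicates of the parental cells. The median of replicate 2 minus replicate 1 over the 6 was -0.20 in parental sgNORAD and -0.16 in parental sgControl. It was -0.04 in circPRE2 sgNORAD and -0.02 in circPRE8 sgNORAD. With the length trend of each library removed, an alternative chosen after seeing the data, 36 members were higher and 5 lower in circPRE8 sgNORAD than in parental sgNORAD. The same alternative took the calls from CENPF and ASPM against circPRE2 sgNORAD (log2 changes of -0.14 each) and made KNL1 and CENPF called in the first comparison (-0.19 and -0.16). What lies behind the length trend was not tested.

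**Figure D4:**
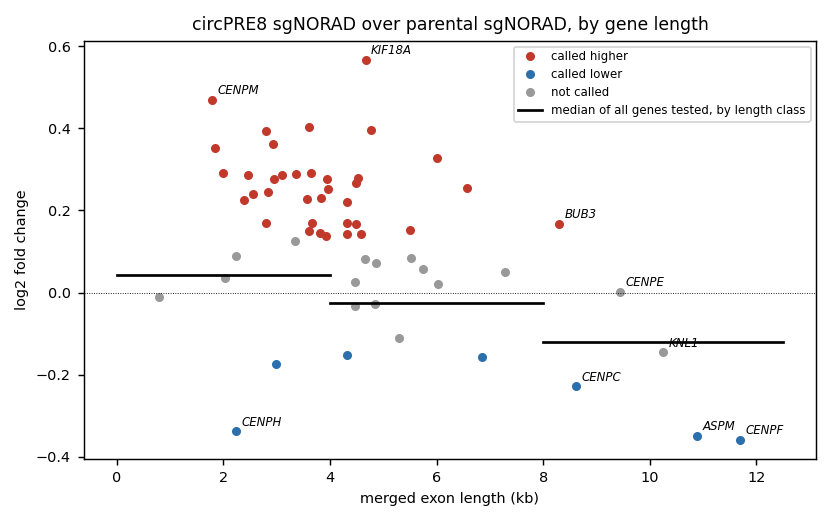
Merged exon length (horizontal axis, kb) is plotted against the log2 change of circPRE8 sgNORAD over parental sgNORAD for the 59 members tested (points, coloured by call), with the median of all genes tested in 3 length classes as black lines. Points sit mostly above 0 under 8 kb, BUB3 is the only 1 of the 6 longest members called higher, and CENPF, ASPM and CENPC are called lower.

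Because the members moved together, their promoters are of interest, and RefSeq (GRCh38.p14) gave the 300 bases from 250 before to 50 after the gene start for 51 of them. BUB3, TTK, CENPH, CENPM, KNL1, BIRC5, AURKA, TPX2 and RACGAP1 had no entry. A CHR element, searched as TTTGAA or TTCGAA on both strands, stood in 36 of 51 promoters (70.6%), against 10.6% of 9204 promoters of genes tested and 16.6% of all 27305 promoters. CCAAT, on either strand, stood in 39 (76.5%), against 36.7% of genes tested and 35.7% of all, and 22 (43.1%) had it at least 2 times, against 13.8% of genes tested and 11.3% of all. Both elements stood in 30 (58.8%), against 4.49% of genes tested and 6.58% of all. An E2F motif, searched as TTTGGCGC, TTTCCCGC, TTTCGCGC or TTTGCCGC on both strands, stood in 4 (7.84%), against 5.49% of genes tested and 3.33% of all. A match is a description of the letters and not a measured binding site; in 1 promoter, that of CDCA8, a CHR and a CCAAT match overlapped.

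Many CHR matches lay near the gene start. In 30 promoters a CHR match began within 50 bases of the gene start, and in 24 of these a CCAAT match lay upstream of it. Most of the searched bases lie before the start, so a CCAAT match would mostly fall upstream of such a CHR match anyway. This order was not counted over the genes tested. The following stretches, from 150 bases before to 15 after the start, 5′ to 3′ on the gene's strand, show this layout in 4 members that were higher in circPRE8 sgNORAD than in parental sgNORAD (CCNB2, PLK1, SPC25, KIF18A). ASPM, which was lower, is set beside them as a promoter with another layout. Of the other lower members, CENPF and KIF20B had the first layout and CENPC, ZW10 and CENPK did not. CCNB1, which was higher, had no CHR match, and a link of layout to direction was not tested. In the stretches, CHR and CCAAT matches of either strand are in capitals. The stretches lie at chr15:59104996-59105160 (plus strand), chr16:23678739-23678903 (plus), chr2:168890416-168890580 (minus), chr11:28108142-28108306 (minus) and chr1:197146655-197146819 (minus), in the order given.
CCNB2: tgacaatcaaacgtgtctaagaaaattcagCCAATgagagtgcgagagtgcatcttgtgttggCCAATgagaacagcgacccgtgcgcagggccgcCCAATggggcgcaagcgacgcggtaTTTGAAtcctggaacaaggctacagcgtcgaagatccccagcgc
PLK1: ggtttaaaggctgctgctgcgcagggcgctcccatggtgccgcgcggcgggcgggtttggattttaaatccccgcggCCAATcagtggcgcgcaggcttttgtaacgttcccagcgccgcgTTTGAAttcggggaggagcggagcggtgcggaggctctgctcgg
SPC25: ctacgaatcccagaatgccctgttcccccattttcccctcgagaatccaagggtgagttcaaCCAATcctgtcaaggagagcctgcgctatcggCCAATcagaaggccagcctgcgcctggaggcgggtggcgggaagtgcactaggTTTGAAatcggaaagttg
KIF18A: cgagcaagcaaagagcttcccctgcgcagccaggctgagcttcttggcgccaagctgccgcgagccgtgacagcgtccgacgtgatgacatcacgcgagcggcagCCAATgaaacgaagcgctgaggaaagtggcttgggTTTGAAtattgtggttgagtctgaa
ASPM: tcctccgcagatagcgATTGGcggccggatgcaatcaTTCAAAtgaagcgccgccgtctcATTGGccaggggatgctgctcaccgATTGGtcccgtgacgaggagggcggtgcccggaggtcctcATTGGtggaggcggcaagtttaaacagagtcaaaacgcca

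CCNB2 shows 3 CCAAT boxes and then a CHR element, and ASPM shows a CHR element farther upstream, with 1 CCAAT box on the other strand before it and 3 after it. A CHR match stood in 31 of 44 members (70.5%) that fell in parental sgNORAD, in 20 of 29 (69%) that were higher in circPRE8 sgNORAD than in parental sgNORAD, and in 5 of 6 (83.3%) that were lower there.

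**Figure D5:**
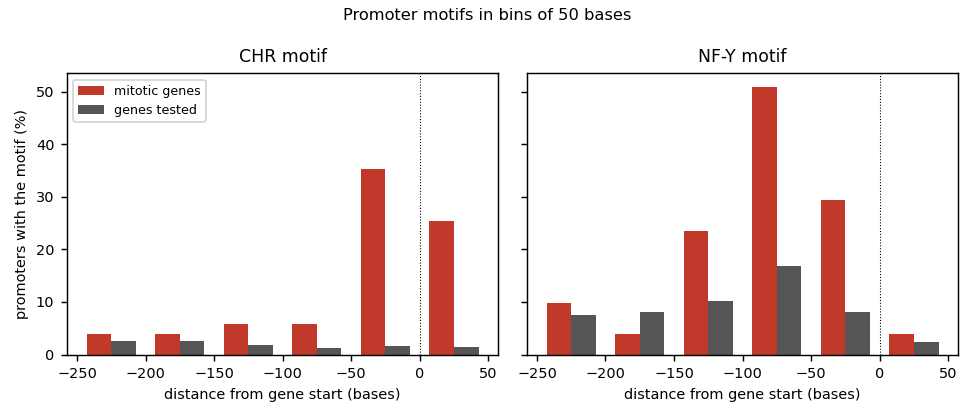
Shares of promoters (percent) with a CHR match (left) or a CCAAT match, the NF-Y motif (right), in bins of 50 bases by distance from the gene start, for 51 members (red) and 9204 genes tested (grey). Members peak at 35.3% for CHR in the 50 bases before the start and at 51% for CCAAT between 100 and 51 bases before it, where the genes tested stand at 1.6% and 16.8%.

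PUMILIO motifs were counted in the 3′ UTRs of GENCODE 29 transcripts, as TGTANATA on the transcript strand. At least 1 stood in 28 of 59 members tested (47.5%), against 27.1% of 11580 genes tested with a UTR, although the UTRs with a motif were shorter in the members (median 690 bases) than in all genes (2381 bases). Sites of members that the results turn on are printed as 24 bases of the transcript strand, with the motif in capitals, to show the letters around each match; the letters of the motif itself were set by the search.
BUB1: aatcacacTGTAAATAtgaatctg
NUF2: ccccttgtTGTAAATAgtttgagt
CCNB2: cttgatttTGTACATAgtcctctg
PLK4: tttgaagaTGTAAATAatgtgtat
SPC25: acaaatagTGTATATAaaaacggt
KIF18A, first of 2: tgtacaagTGTAAATAtatgtgcc
KIF18A, second of 2: aaaatcatTGTAAATAttatttag
CENPF, first of 3: tactgcaaTGTAAATAgtataaag

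These sites lie at chr2:110637915-110637938 (minus strand), chr1:163355689-163355712 (plus), chr15:59124939-59124962 (plus), chr4:127898925-127898948 (plus), chr2:168871404-168871427 (minus), chr11:28020708-28020731 (minus), chr11:28020681-28020704 (minus) and chr1:214664008-214664031 (plus) of hg38. Members were counted by presence of the motif, and the difference was not tested. In parental sgNORAD against parental sgControl, 25 of 28 with a motif fell (median log2 change -0.24) and 26 of 31 without one fell (median -0.27). Over all genes tested, 522 of 3134 with a motif and 1377 of 8446 without one fell. In circPRE8 sgNORAD against parental sgNORAD, 15 of 28 with a motif rose and 4 fell (median 0.14), and 21 of 31 without one rose and 3 fell (median 0.17). Over all genes tested, 631 of 3134 with a motif rose and 1085 fell (median -0.06), and 2105 of 8446 without one rose and 2230 fell (median -0.01).

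Other genes of cell division, from lists chosen by function, were counted in the same way, and their counts stand beside 20.9% of all genes higher and 16.4% lower in parental sgNORAD than in parental sgControl. Of 34 other mitosis genes, 26 fell in parental sgNORAD against parental sgControl and none rose, with PBK (-0.39) and KIFC1 (-0.38) changing most. Of 20 other kinetochore genes 11 fell and none rose, led by PMF1, of the MIS12 complex, at -0.79, and HJURP, the chaperone of CENPA, at -0.43. Of 7 centriole duplication genes 3 fell, with STIL at -0.22 and CENPJ at -0.20. The anaphase-promoting complex was mixed, with 4 of 17 genes higher and 5 lower, UBE2S, which extends ubiquitin chains on its substrates, at -0.45 and ANAPC15 at -0.29. Of a list of kinesins and light chains known mostly for cargo transport, 9 of 21 rose and 1 fell, with KIF5A at 0.72 and KIF16B at 0.38. The microtubule depolymerase KIF2A was in this list too.

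The same lists in circPRE8 sgNORAD against parental sgNORAD, where 23.6% of all genes were higher and 28.6% lower, showed 15 of 34 other mitosis genes higher and 4 lower, 9 of 20 other kinetochore genes higher and 1 lower, and 6 of 17 anaphase-promoting complex genes higher and 3 lower. PMF1 had 5.501 and 5.96 RPKM in circPRE8 sgNORAD and 3.37 and 2.95 RPKM in parental sgNORAD (log2 change 0.84). HJURP changed by 0.35, STMN1 by 0.40 and UBE2S by 0.42. MKI67, the proliferation marker Ki-67, went the other way, with 35.0 and 33.4 RPKM in circPRE8 sgNORAD and 56.6 and 45.5 RPKM in parental sgNORAD (log2 change -0.57). The parental sgNORAD libraries were apart for MKI67, as for the long genes CENPF and ASPM. The part of gene length in this change was not tested. ANAPC1, a subunit of the complex's platform, changed by -0.49. The listed kinesins and light chains, mostly of transport, rose in 2 of 21 cases and fell in 10, with KIF5A at -0.71 and KIF21B at -0.49. Of 7 centriole genes 2 (CEP152 and CEP192) fell, a share like that of all genes.

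A list of cell cycle gene regulators was counted as well. CDKN1A, the CDK inhibitor p21 and a target of p53, had 149.9 and 144 RPKM in circPRE8 sgNORAD, 145 and 147 RPKM in circPRE2 sgNORAD, 149.9 and 148 RPKM in parental sgNORAD, and 84.4 and 91.8 RPKM in parental sgControl. All 6 libraries with the NORAD guide were far above the control guide, and the log2 change in parental sgNORAD was 0.76 ± 0.043 (SE; limma, adjusted p = 4.5e-07). Between circPRE8 sgNORAD and parental sgNORAD its log2 change was -0.02 and was not called. MYBL2, the B-MYB factor that joins MuvB, had 52.7 and 53.1 RPKM in circPRE8 sgNORAD, 45.1 and 45.9 RPKM in circPRE2 sgNORAD, 50.4 and 47.4 RPKM in parental sgNORAD, and 59.6 and 61.7 RPKM in parental sgControl. FOXM1, an activator of the same genes named after its values were seen, had 26.4 and 25.7 RPKM in circPRE8 sgNORAD, 22.5 and 22.7 RPKM in circPRE2 sgNORAD, 24.04 and 22.7 RPKM in parental sgNORAD, and 27.6 and 27.8 RPKM in parental sgControl. Both fell in parental sgNORAD against parental sgControl (log2 changes of -0.31 and -0.25) and rose in circPRE8 sgNORAD against parental sgNORAD (0.11 and 0.16). Of 21 regulators in all, 2 rose and 7 fell in the first of these comparisons, where 20.9% of all genes were higher and 16.4% lower. In the second 3 rose and 5 fell, where 23.6% of all genes were higher and 28.6% lower. There E2F4 and E2F3 fell most, by 0.30 and 0.23 on the log2 scale. The part of these regulators in the mitotic changes was not tested.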

How the data were processed

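The authors deposited 1 table of RPKM values, made from poly(A) RNA-seq. The submitters' processing notes name STAR, featureCounts 1.6.0, edgeR 3.24.0 and the build hg38; for annotation, strand and filters the steps were not given in the sources used here. All 8 sample columns were used. A series design text on triplicates and small RNA differs from these libraries and was not used. Library sizes were recovered from the steps between low RPKM values, using merged exon lengths of GENCODE 29; 82.6% to 83.5% of low values per library came out as whole reads within 0.1, and these reads serve for depth only, which covers counting error alone.

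The 11585 genes that reached 0.5 RPKM in 2 or more libraries were fitted as log2(RPKM + 0.1) with limma 3.58.1 in R 4.3.3, with 1 coefficient per group over all 8 libraries, an intensity trend and Benjamini-Hochberg adjustment over all genes, threshold 0.05 (4 residual degrees of freedom, 11.6 after moderation). The script was tested on simulated data. Fold changes on this scale understate changes of low genes. The 6 comparisons share groups and so are not independent.

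Values of all libraries are given, for parental sgNORAD against parental sgControl, for the 2 members of each role with the largest called change and each member not called, and elsewhere for the 3 called members with the largest change in each direction; of other lists, the 2 genes with the largest called change. CCNB1, FOXM1 and the members whose promoters and sites are printed were chosen after their values were seen. Members and lists were chosen with earlier results of these data known. Members picked for a large called change were likely to have groups that do not overlap. For them a lack of overlap is a description and not further support. Alternatives varied the pseudocount, filter, scaling, trend, groups in the fit, replicate block, gene length and each library. The 3′ UTR was that of the principal coding transcript with the longest 3′ UTR.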

Additional observations from a re-analysis of the deposited data

How the results depend on the processing

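Across the other settings, among them the removal of each library's length trend that was chosen after seeing the data, the members' counts kept their prevailing direction, except where 2 or fewer members were called. For circPRE2 sgNORAD against parental sgNORAD, the 2 members called lower became 0 with no filter on low values, 0 without the intensity trend, 4 with RLE size factors and 4 with the length trend removed. The 7 members lower in circPRE8 sgNORAD than in parental sgNORAD became 4 with no filter and 4 with upper quartile factors. The 3 members higher in circPRE8 sgNORAD than in parental sgControl became 1 without the trend, and the 3 lower in circPRE8 sgNORAD than in circPRE2 sgNORAD became 1 with the length trend removed; the causes were not tested. Leaving out 1 library at a time, with a lone library assumed to vary like the other groups, gave 42 to 51 calls (all lower) for parental sgNORAD against parental sgControl, 0 to 3 (all lower) for circPRE2 sgNORAD against parental sgNORAD, 33 to 42 (29 to 36 higher, 3 to 7 lower) for circPRE8 sgNORAD against parental sgNORAD, 33 to 43 (31 to 40 higher, 2 to 3 lower) for circPRE8 sgNORAD against circPRE2 sgNORAD, 44 to 53 (all lower) for circPRE2 sgNORAD and 16 to 31 (1 to 3 higher, 15 to 28 lower) for circPRE8 sgNORAD against parental sgControl. The uncalled changes of CENPC and ASPM in parental sgNORAD turned to 0.06 and 0.04 without parental sgControl replicate 1, and ranged from -0.12 and -0.18 without parental sgNORAD replicate 1 to 0.084 and 0.083 without parental sgNORAD replicate 2; the median of members in circPRE2 sgNORAD against parental sgNORAD came to 0.0015 without parental sgNORAD replicate 1 and -0.049 without parental sgNORAD replicate 2. Of the other values under alternatives, 935 were counted as the same, 24 lost a call and 4 gained one. For a gene, the same meant an unchanged direction and side of the threshold. The medians of members, which have no threshold, were counted too. For them it meant an unchanged direction and a move smaller than the typical median difference between replicates. When a library was left out, the share of all genes called moved as well, and whether the member counts followed it was not tested. Over all genes, same-numbered replicates deviated together weakly at most (correlations from -0.173 to 0.211), which does not settle whether the numbers pair the samples. In genes of 8000 bases or more, the median of replicate 2 minus replicate 1 was below 0 in all 4 groups, from -0.067 to -0.026. A fit with the replicate number as a block called 50, 2, 43, 42, 53 and 31 members in the order of comparisons above. Depth limits PRC1 and MAD1L1, and with 2 libraries a group the median 95% interval of a member spans 0.0993 log2 units to either side.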
